A study of Mus musculus with 5 samples.

Results

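The keratin and cornified envelope genes described here are 10 genes fixed by symbol: the simple epithelial keratins Krt7, Krt8, Krt18, Krt19, Krt20 and Krt23, the stratified epithelial keratin Krt17, and the envelope genes Sprr1a, Ivl and Tgm1. All 10 were found among 52459 rows of a table of mRNA levels in mouse pancreatic cancer cells. The levels are FPKM, in which the fragments of a gene are divided by its length in kilobases and by the depth of the library. The cells came from the HY15549 line of C57BL/6 background, carried the GFP-LC3-RFP reporter of autophagy flux, and were grown as organoids in Matrigel. Organoids were dissociated and single cells were sorted by the ratio of GFP to RFP into autophagy-high cells (AThi, 2 libraries) and autophagy-low cells (ATlo, 3 libraries). Both groups carry the same reporter and come from 1 line, and no label used here says whether the replicates were separate cultures, so every p-value here reflects the spread between libraries, which may be technical.

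Keratins are intermediate filament proteins that assemble as obligate pairs of a type I and a type II chain. Simple epithelia use the type II keratins K7 and K8 with type I keratins from among K18, K19, K20 and K23, while stratified epithelia use other pairs. The cornified envelope is the protein shell that replaces the plasma membrane of terminally differentiated keratinocytes. Small proline-rich proteins and involucrin are its precursors, and transglutaminases cross-link them.

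The comparison of AThi with ATlo cells asks which transcripts differ when cells of 1 tumour line are separated by their autophagy flux. The filament core transcripts Krt8, Krt18 and Krt19 were abundant in both groups. They did not pass the test, which does not show equal levels. Krt7 and Krt23 were lower in AThi, and so were the envelope precursors Sprr1a and Ivl, while Krt20 was higher. Of the 10 genes, 8 had a mean of at least 1 FPKM and were tested with limma on log2(FPKM + 0.5), with Benjamini-Hochberg adjustment over all 11397 genes tested and a threshold of 0.05. Among these 8, 4 fell, 1 rose and the remaining 3 missed the threshold, or 62.5% called. The same test called 51.6% of all genes tested, 29.4% lower and 22.2% higher in AThi, so a share of this size is close to the background. That split over all genes depended on the scaling, and was 3039 higher and 2903 lower after centring each library on its median, against 2529 and 3355 as tested. The median log2 fold change of the 8 genes was -0.48, against -0.028 over all genes tested. Library values of AThi and ATlo did not overlap in 5 of the 8 genes, the same 5 that were called, and in 70.3% of all genes tested. In 4 of these 5 both AThi libraries lay below every ATlo library, as in 38.4% of all genes tested, and in 1 they lay above, as in 31.9%.

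**Figure D1:**
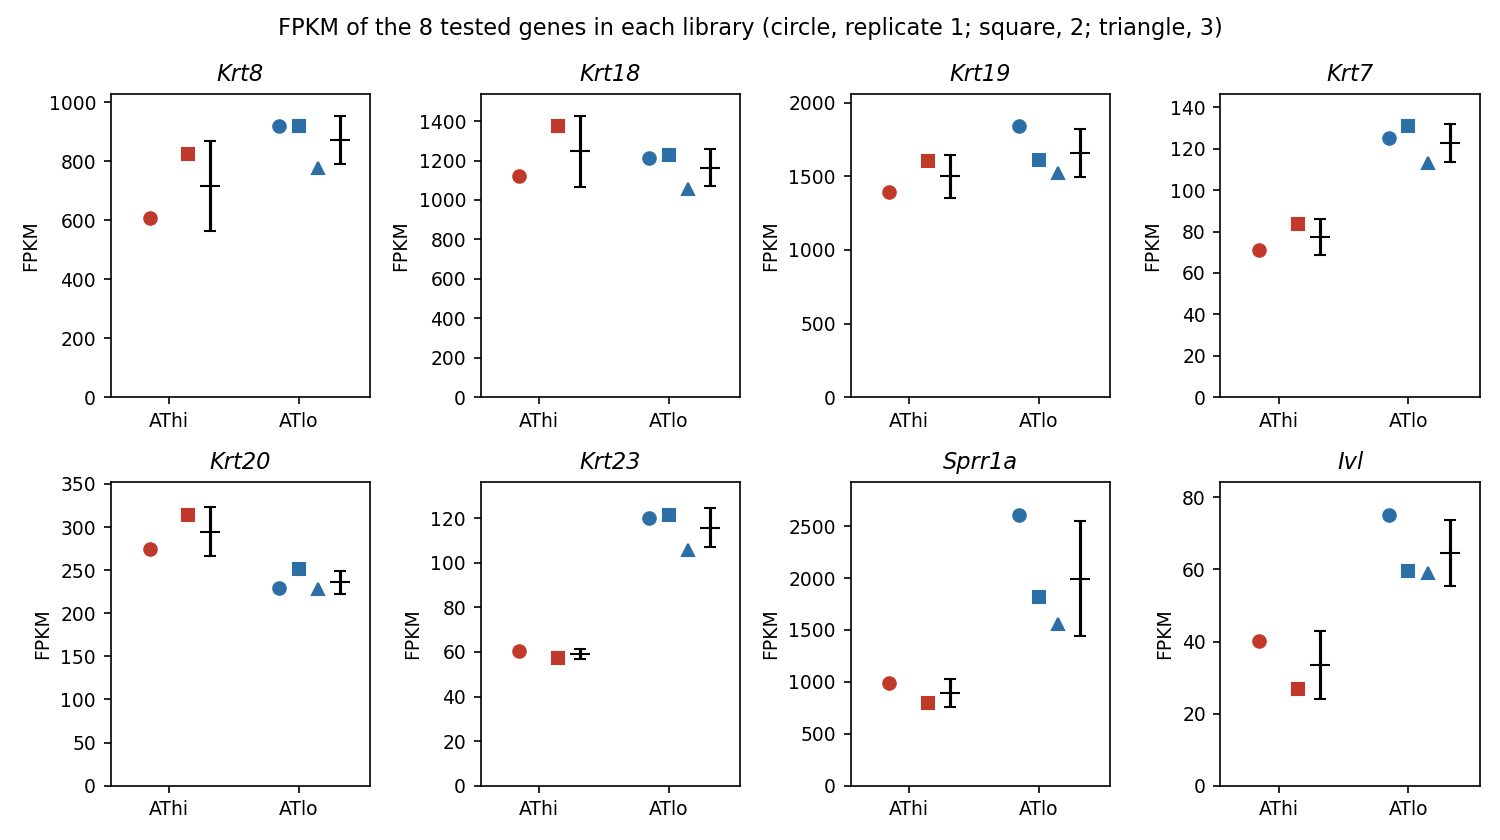
FPKM (y axis, from 0) of the 8 tested genes in the 2 AThi libraries (red) and the 3 ATlo libraries (blue). Each symbol is a library, and the black bar is the group mean with its SD. AThi lies below ATlo in Krt7, Krt23, Sprr1a and Ivl, above it in Krt20, and overlaps it in Krt8, Krt18 and Krt19.

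Krt8 and Krt18 encode the chains of the primary filament pair of simple epithelia. Krt8 had 608.83 and 824.04 FPKM in the AThi libraries, against 919.46, 919.10 and 776.70 FPKM in the ATlo libraries. AThi replicate 1 lay below every other library, and AThi replicate 2 lay within the ATlo range. Its log2 fold change of -0.29 ± 0.15 (SE) did not pass (adjusted p = 0.142), with a 95% interval of -0.65 to 0.063. It moved with the AThi library left out, to -0.077 (adjusted p = 0.683) without AThi replicate 1 and to -0.51 (adjusted p = 0.0335) without AThi replicate 2. Krt18 had 1120.71 and 1374.93 FPKM in AThi, against 1211.44, 1226.95 and 1053.88 FPKM in ATlo, and the groups overlapped. Its log2 fold change was 0.096 ± 0.13 (SE), with an interval of -0.21 to 0.40 and an adjusted p of 0.558, and without AThi replicate 2 it was -0.051. Krt8 lies on chromosome 15 (101996698 to 102004482, minus strand) and Krt18 on the same chromosome (102028180 to 102032027, plus strand) of GRCm38, 23.7 kb apart with 0 protein-coding genes between them. Of the 50-base stretches in the Krt8 transcript, 29.7% also occur in the pseudogene Krt8-ps or in Gm36026, a lincRNA gene annotated on the opposite strand. Reads from these can be split in counting, so the level of Krt8 is uncertain. Krt8-ps was listed at 3.38 and 4.28 FPKM in AThi and 4.42, 3.03 and 3.92 FPKM in ATlo.

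Krt19, a type I keratin and a common marker of pancreatic ductal cells, was the keratin with the highest level in both groups. It had 1394.98 and 1604.53 FPKM in AThi, against 1841.57, 1612.86 and 1525.47 FPKM in ATlo. AThi replicate 1 was the lowest library and ATlo replicate 1 the highest, with AThi replicate 2 inside the ATlo range. The log2 fold change was -0.15 ± 0.13 (SE), with an interval of -0.44 to 0.15 and an adjusted p of 0.365. It was -0.044 without AThi replicate 1 and -0.25 without AThi replicate 2, and neither passed. Krt19 lies on chromosome 11 (100140810 to 100148665, minus strand). For these 3 filament genes a missed threshold does not show equal levels: the intervals allow a log2 fold change as low as -0.65 for Krt8.

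Krt7, the type II keratin of ducts and other glandular epithelia, fell. It had 71.21 and 83.48 FPKM in AThi, against 124.99, 130.96 and 112.97 FPKM in ATlo. Both AThi libraries lay below all ATlo libraries. AThi cells averaged 77.3 ± 8.68 FPKM (SD, n = 2) and ATlo cells 123 ± 9.16 FPKM (SD, n = 3). The log2 fold change was -0.67 ± 0.097 (SE), with a limma adjusted p of 0.00151. Krt7 lies on chromosome 15 (101411043 to 101430313, plus strand). Its merged exons span 7049 bases, against 4094 bases for its longest annotated transcript, and the length behind the FPKM is not given in the sources used here. The level of Krt7 relative to other genes is therefore uncertain, while the length is shared by all libraries. Krt7 also overlaps an antisense gene on the opposite strand, Gm671, and the strand setting of the counting is not given. Of the 50-base stretches in its transcripts, 0.916% also occur in other genes, Gm671 among them.

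Krt20 and Krt23 are neighbouring type I genes that were called in opposite directions. Krt23 had 60.54 and 57.28 FPKM in AThi, against 119.87, 121.63 and 105.74 FPKM in ATlo. The groups were far apart relative to the spread within each, with means of 58.9 ± 2.31 FPKM for AThi (SD, n = 2) and 116 ± 8.71 FPKM for ATlo (SD, n = 3). The log2 fold change of -0.97 ± 0.081 (SE) had an adjusted p of 0.000186 in limma, the smallest among the 8 genes. Krt20, a keratin known from intestinal, gastric and urothelial epithelia, had 274.84 and 314.48 FPKM in AThi, against 229.13, 251.09 and 227.74 FPKM in ATlo. Both AThi libraries lay above all ATlo libraries, but the gap between AThi replicate 1 and ATlo replicate 2 was small. Its log2 fold change was 0.32 ± 0.090 (SE), with an adjusted p of 0.0225 in limma. This call was lost without AThi replicate 2 (0.22, adjusted p = 0.124), without ATlo replicate 1 (0.30, adjusted p = 0.0539), without ATlo replicate 3 (0.29, adjusted p = 0.0629) and with no filter on low values (adjusted p = 0.0833). On chromosome 11, Krt20 (99428403 to 99438150, minus strand) and Krt23 (99477974 to 99493137, minus strand) are 39.8 kb apart with 0 protein-coding genes between them.

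**Figure D2:**
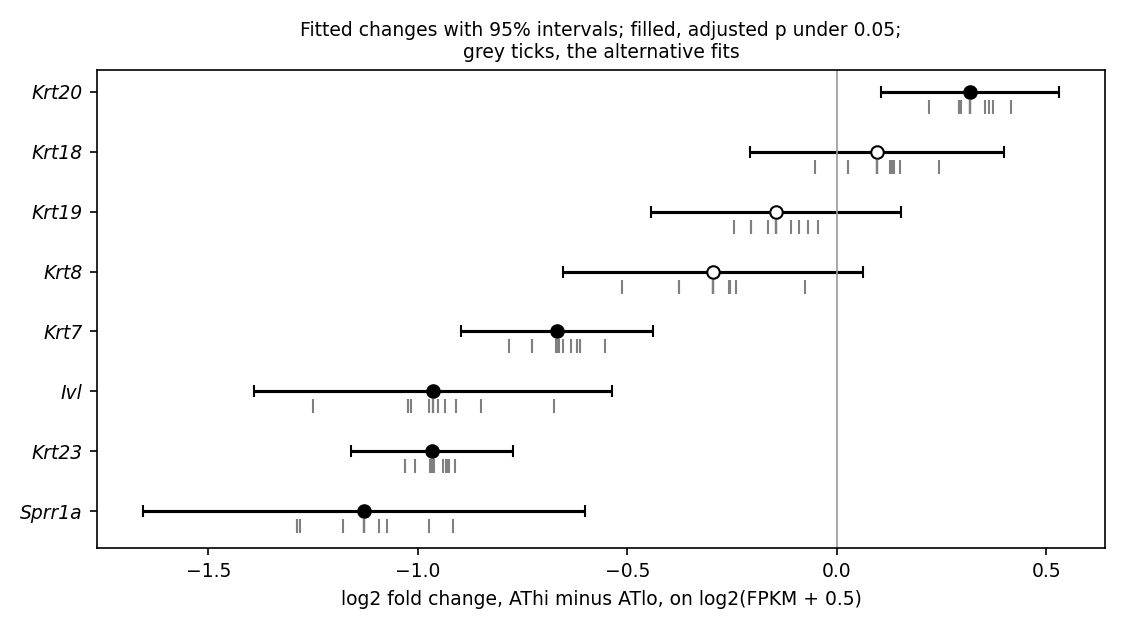
Log2 fold change (x axis, AThi minus ATlo, on log2(FPKM + 0.5)) of the 8 tested genes, with 95% intervals. Filled circles passed an adjusted p of 0.05, and grey ticks are the alternative fits. Sprr1a, Krt23, Ivl, Krt7, Krt8 and Krt19 lie left of 0 in every fit, Krt20 lies right of it, and Krt18 lies on both sides.

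Since keratin chains pair, their transcripts were also set against each other within each library. Krt8 was at 0.543 and 0.599 times the FPKM of Krt18 in AThi, against 0.759, 0.749 and 0.737 times in ATlo. The ATlo libraries lay close together and both AThi libraries lay below them, although neither gene passed the test by itself. The summed FPKM of the type II genes Krt7 and Krt8 was 23.9% and 27.1% of the sum of the type I genes Krt18, Krt19, Krt20, Krt23 and Krt17 in AThi, against 30.7%, 32.7% and 30.5% in ATlo. The Krt20 to Krt19 ratio was 0.197 and 0.196 in AThi, against 0.124, 0.156 and 0.149 in ATlo, and the groups did not overlap. These ratios were formed from genes chosen with their values known and are given as a description, with no test. The 7 keratins together made up 1.21% and 1.48% of the summed FPKM in AThi, against 1.47%, 1.44% and 1.29% in ATlo, and here the groups overlapped. The type II sum itself was 680.04 and 907.52 FPKM in AThi, against 1044.5, 1050.1 and 889.67 FPKM in ATlo, and it overlapped as well. So did the type I sum, at 2851.1 and 3351.3 FPKM in AThi against 3402, 3212.5 and 2912.8 FPKM in ATlo. The lower ratio of type II to type I thus stood beside overlapping sums of each type and an overlapping total.

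**Figure D3:**
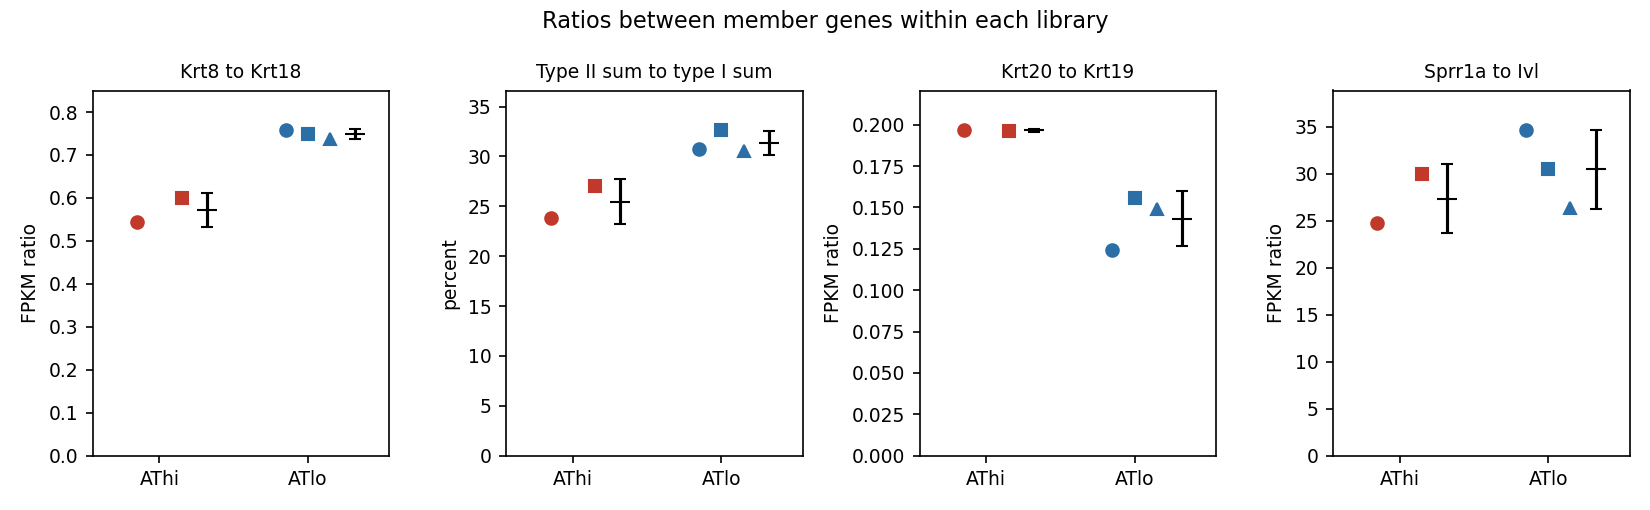
Ratios of FPKM between genes within each library (y axes from 0), for AThi (red) and ATlo (blue), with group means and SD in black. The groups lie apart for Krt8 to Krt18, type II to type I and Krt20 to Krt19, and overlap for Sprr1a to Ivl, at 24.8 and 30.0 in AThi and 26.3 to 34.7 in ATlo.

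Krt17, a type I keratin of basal and wound-activated keratinocytes that also marks basal-like tumours, was barely detected. It was listed at 0.04 FPKM in AThi replicate 2, which corresponds to about 3 reads, and at 0 in the other 4 libraries. A count of 0 allows a level of up to 0.0701 FPKM in AThi replicate 1 and 0.0459 to 0.0538 FPKM in ATlo. The gene was not tested. Of its 50-base stretches, 3.99% also occur in other keratin genes, among them Krt14, which is expressed here.

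Sprr1a encodes a small proline-rich envelope precursor that is also induced in injured and regenerating tissues. It had 991.38 and 800.57 FPKM in AThi, against 2611.94, 1817.18 and 1556.19 FPKM in ATlo. All ATlo libraries lay above both AThi libraries, with ATlo replicate 1 well above the other two. The means were 896 ± 135 FPKM for AThi (SD, n = 2) and 1995 ± 549.9 FPKM for ATlo (SD, n = 3), and the log2 fold change was -1.13 ± 0.22 (SE), with an adjusted p of 0.00544 in limma. With no filter on low values this call was lost, with an adjusted p of 0.0696. Sprr1a ranked 21 and 32 among all rows in the AThi libraries, against 10, 10 and 11 in the ATlo libraries, so it was among the most abundant transcripts of these pancreatic cancer cells.

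Ivl encodes involucrin, a scaffold onto which other envelope proteins are cross-linked. It had 40.05 and 26.70 FPKM in AThi, against 75.24, 59.62 and 59.13 FPKM in ATlo. Both AThi libraries lay below all ATlo libraries, although their coefficient of variation, 28.3%, was the highest in AThi among the 8 tested genes. The means were 33.4 ± 9.44 FPKM for AThi (SD, n = 2) and 64.7 ± 9.16 FPKM for ATlo (SD, n = 3), and the log2 fold change was -0.96 ± 0.18 (SE), with an adjusted p of 0.00435 in limma. Sprr1a (92483952 to 92485895, minus strand) and Ivl (92570902 to 92573735, minus strand) lie on chromosome 3, 85.0 kb apart. Of the 2 protein-coding genes annotated between them, 0 had a mean of at least 1 FPKM.

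Tgm1 encodes transglutaminase 1, the membrane-bound cross-linking enzyme of keratinocytes. It had 0.05 and 0.02 FPKM in AThi, against 0.21, 0.18 and 0.07 FPKM in ATlo, or about 4 and 3 reads against 28, 20 and 9 reads. The AThi levels lie at or near the value of 3 reads, which is 0.0344 and 0.0211 FPKM there. The ATlo levels lie above the value of 3 reads, which is 0.0225, 0.0264 and 0.0242 FPKM in those libraries, and the groups did not overlap. The gene was below the filter and not tested. Both precursors were thus expressed where this enzyme was at no more than 0.21 FPKM. Tgm1 lies on chromosome 14 (55700009 to 55713926, minus strand), overlaps an antisense gene, and the strand setting of the counting is not given in the sources used here.

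The 250 bases before the start sites of Sprr1a and Ivl, the envelope genes that fell, and of Krt20, the keratin that rose, are shown from RefSeq (GRCm38.p6), 5′ to 3′ on the strand of the gene. Capitals mark matches to TGANTCA, the binding motif of the AP-1 transcription factors, and to TATAAA, the TATA box. The windows are chr3:92485882-92486131 (minus strand) for Sprr1a, chr3:92573736-92573985 (minus strand) for Ivl and chr11:99438154-99438403 (minus strand) for Krt20.
Sprr1a: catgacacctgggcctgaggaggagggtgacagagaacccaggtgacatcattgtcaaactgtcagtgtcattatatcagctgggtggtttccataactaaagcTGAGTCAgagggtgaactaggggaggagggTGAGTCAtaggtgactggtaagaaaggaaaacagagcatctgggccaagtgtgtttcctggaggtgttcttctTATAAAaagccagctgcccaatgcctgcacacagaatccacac
Ivl: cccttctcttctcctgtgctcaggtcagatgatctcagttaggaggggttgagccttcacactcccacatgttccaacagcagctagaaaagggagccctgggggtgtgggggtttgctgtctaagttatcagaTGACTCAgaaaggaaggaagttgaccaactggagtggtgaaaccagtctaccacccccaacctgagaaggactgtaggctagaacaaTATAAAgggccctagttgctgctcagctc
Krt20: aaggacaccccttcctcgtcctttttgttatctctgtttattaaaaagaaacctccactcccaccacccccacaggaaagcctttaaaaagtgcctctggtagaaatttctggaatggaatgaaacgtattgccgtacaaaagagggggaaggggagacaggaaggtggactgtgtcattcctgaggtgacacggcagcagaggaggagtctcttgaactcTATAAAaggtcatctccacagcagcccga
The Sprr1a window held 2 AP-1 matches, which begin 146 and 116 bases before its RefSeq start. The Ivl window held 1, which begins 116 bases before its RefSeq start, and the Krt20 window held 0. The gene coordinates given above come from another annotation, GENCODE M21. There Sprr1a, on the minus strand, starts at 92485895, inside its window, so its match positions depend on the annotation. Promoter entries were matched for 8 of the 10 genes, and no entry of Krt7, Krt8, Krt18, Krt23 or Tgm1 held an AP-1 match in this window. By the gene coordinates above, the windows of Krt7 and Tgm1 lie inside the gene. Those of Krt8, Krt18 and Krt23 lie partly inside it. The lack of a match in these windows therefore does not describe the bases before the starts given above. Over 32851 promoter windows of the same length, both strands searched, 6.75% held an AP-1 match. TATAAA occurred in the windows of Sprr1a, Ivl and Krt20, and in 12.4% of all windows. A match is a description of letters, not a binding site.

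The order of the levels differed between the groups in 1 respect. In AThi it ran from Krt19 through Krt18, Sprr1a, Krt8, Krt20, Krt7, Krt23 and Ivl to Tgm1 and Krt17, and the library ranges overlapped between Sprr1a and Krt8 and between Tgm1 and Krt17. In ATlo Sprr1a stood first, with a range that overlapped that of Krt19, and then came Krt19, Krt18, Krt8, Krt20, Krt7, Krt23, Ivl, Tgm1 and Krt17. There the ranges of Krt7 and Krt23 overlapped as well. At implied depths of 27.6 to 44.95 M reads (M, 1e6), the lowest number of reads for a tested gene was 2125, for Ivl in AThi replicate 1, so counting error is small beside the spread between libraries.

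Other genes of the same structures were taken from fixed lists. Of 22 other keratins, 6 were tested, and 2 fell, 0 rose and 4 missed the threshold. That is 33.3% called, against 51.6% of all genes tested. Their median log2 fold change was -0.22. Krt13, a type I keratin of stratified mucosal epithelia, had 0.82 and 0.61 FPKM in AThi, against 7.42, 8.37 and 6.35 FPKM in ATlo, a log2 fold change of -2.69 ± 0.14 (SE) with an adjusted p of 3.93e-05 in limma. Its ATlo values were all several times the AThi values. Both AThi values were below 1 FPKM, so Krt13, 1 of the 2 that fell, reached the filter only through its ATlo values. Krt79 fell by 1.09 on the log2 scale. Krt14, the basal type I keratin, had 13.88 and 19.78 FPKM in AThi against 19.39, 25.99 and 19.40 FPKM in ATlo and did not pass (adjusted p = 0.133), with a log2 fold change of -0.36. It was -0.11 (adjusted p = 0.651) without AThi replicate 1, and passed without AThi replicate 2 (-0.61, adjusted p = 0.0462). Krt80 did not pass at -0.079 on the log2 scale. Its value was 0.20 without AThi replicate 1, and -0.36 with an adjusted p of 0.0449 without AThi replicate 2. The other tested keratins, Krt10 and Krt16, did not pass.

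Of 41 other cornified envelope genes, 7 were tested, and 3 rose, 2 fell and 2 missed the threshold, or 71.4% called beside the 51.6% over all genes. Their median log2 fold change was 0.075. Tgm2, the widely expressed tissue transglutaminase, had 83.38 and 74.88 FPKM in AThi, against 42.22, 32.68 and 31.61 FPKM in ATlo. It rose by 1.16 ± 0.13 (SE) on the log2 scale, with an adjusted p of 0.000537 in limma, and both AThi libraries lay above all ATlo libraries. Anxa1, an annexin that also occurs in the envelope, had 127.46 and 128.41 FPKM in AThi against 207.32, 207.94 and 194.38 FPKM in ATlo and changed by -0.66. Sprr2a3 changed by -0.85, a call lost without AThi replicate 2 (-0.65, adjusted p = 0.0989) and with no filter on low values (adjusted p = 0.0657). Evpl, which encodes envoplakin, rose by 0.37, a call lost without AThi replicate 2 (0.27, adjusted p = 0.106), without ATlo replicate 2 (0.33, adjusted p = 0.0524) and with no filter on low values (adjusted p = 0.052). The list was thus called in both directions, and most of its members were below the filter.

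Desmosomes and hemidesmosomes anchor keratin filaments at the membrane. Of 22 listed genes of these junctions and of cytolinkers, 14 were tested, and 3 fell, 0 rose and 11 missed the threshold. The 21.4% called compares with 51.6% over all genes. Their median log2 fold change was 0.0028. Those that fell were Perp at -0.48, the integrin gene Itga6 at -0.41 and the tetraspanin gene Cd151 at -0.33. Jup, which encodes plakoglobin, was among those that did not pass, at 0.19 (adjusted p = 0.096). It passed without ATlo replicate 1 (0.26, adjusted p = 0.022) and after rescaling to TPM (0.23, adjusted p = 0.0497).

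Of 13 non-keratin intermediate filament genes, 5 were tested, and all 5 fell. Their median log2 fold change was -0.71. Over all genes tested, 29.4% fell. The other 8 were below the filter and did not share 1 direction: Synm had 0.68 and 0.73 FPKM in AThi, against 0.29, 0.26 and 0.25 FPKM in ATlo. Nefh likewise lay higher in AThi with no overlap, at 0.51 and 0.74 FPKM in AThi and 0.20, 0.09 and 0.18 FPKM in ATlo, while Prph and Nefl lay lower with no overlap. Vim, the mesenchymal filament gene vimentin, had 284.11 and 299.79 FPKM in AThi, against 446.30, 454.74 and 440.14 FPKM in ATlo, and the groups did not overlap. The lamin genes Lmnb1, Lmna and Lmnb2, whose products line the nuclear envelope, changed by -2.39, -0.96 and -0.71. The fifth was Nes. Of 29 epithelial and squamous transcription factors, 17 were tested, and 11 rose, 3 fell and 3 missed the threshold (median 0.44). The list had 82.4% called, against 51.6% over all genes, of which 22.2% were higher. Maf, counted among the 11, averaged 1.705 FPKM in AThi and 0.817 FPKM in ATlo, so it reached the filter only through AThi. Cebpb, Fosl2, Sox9 and Elf3 rose by 1.36, 1.19, 1.01 and 0.95. The 3 that fell were Fosl1, Foxa1 and Hnf4a, at -0.74, -0.66 and -0.42. Klf4 did not pass at 0.37 (adjusted p = 0.12). Klf4 passed without AThi replicate 1 (0.64, adjusted p = 0.0274) and was 0.10 (adjusted p = 0.645) without AThi replicate 2.

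**Figure D4:**
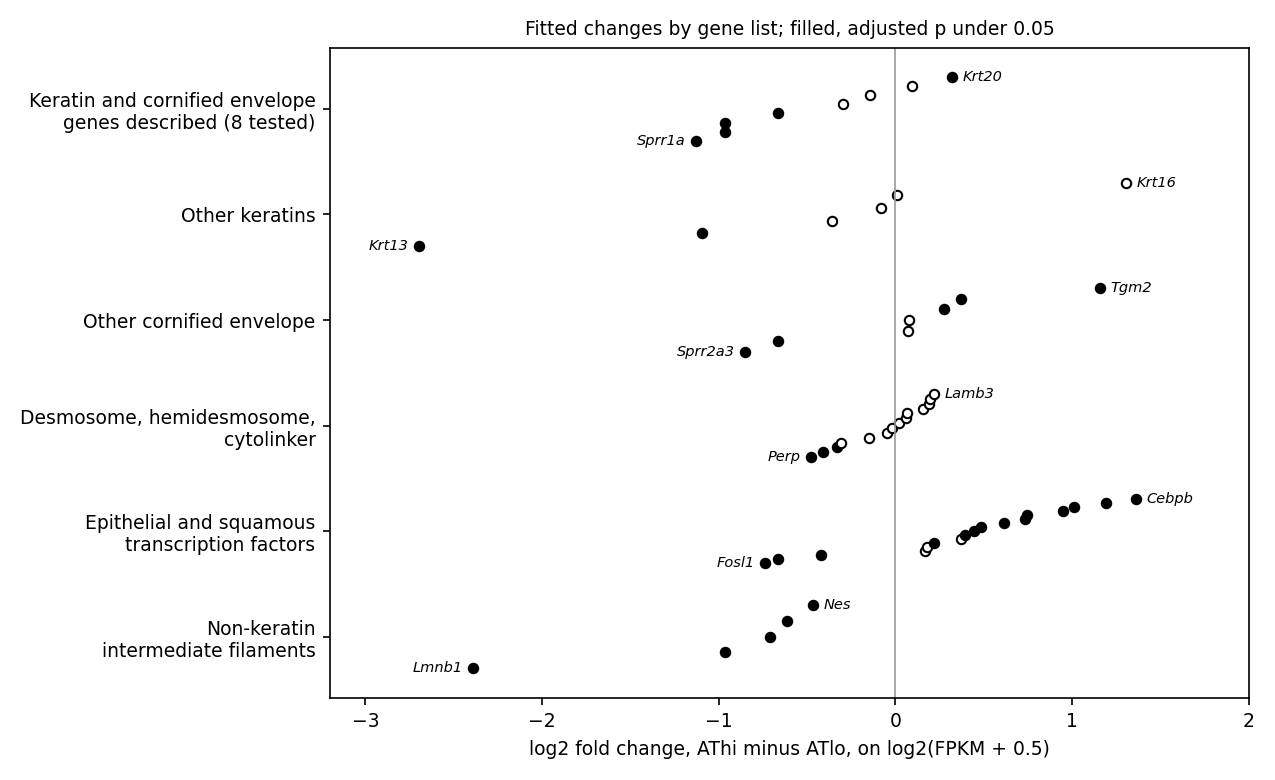
Log2 fold change (x axis, AThi minus ATlo, on log2(FPKM + 0.5)) of each tested gene, by list, with the lowest and highest gene of each list named. Filled circles passed an adjusted p of 0.05. Krt13 and Lmnb1 lie farthest to the left, and Cebpb and Krt16 farthest to the right, Krt16 without passing.

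The cells had the epithelial marker Cdh1 at 350.69 and 315.65 FPKM in AThi and at 342.12 to 392.21 FPKM in ATlo, and 8 of 11 epithelial and ductal markers had a mean of at least 1 FPKM. Epcam was low, at 1.51 and 3.25 FPKM in AThi and 1.70 to 3.57 FPKM in ATlo. Of the marker lists of other cell types, 0 of 8 fibroblast, 0 of 6 endothelial, 0 of 6 endocrine, 1 of 8 immune and 1 of 8 acinar genes reached a mean of 1 FPKM. The immune gene was Cd68, while Ptprc, the pan-leukocyte gene, was at 0.04 to 0.05 FPKM in every library. The summed immune list, nearly all Cd68, was 8.79 and 14.8 FPKM in AThi and 4.37 to 4.63 FPKM in ATlo. The summed acinar list, nearly all Cela1, was 11.1 and 10.3 FPKM in AThi and 11.9 to 13.2 FPKM in ATlo, with Cpa1 and Ptf1a at 0. The summed FPKM of 11 handling and immediate-early genes was 3356 and 5293 in AThi, against 1208 to 1836 in ATlo. Of these genes 9 rose, or 81.8% called against 51.6% of all genes tested. The heat-shock genes Hspa1a and Hspa1b did not pass, at -1.31 and -0.36 on the log2 scale. Mitochondrially encoded genes made up 10.04% and 7.51% of the summed FPKM in AThi, against 5.53% to 5.98% in ATlo. This mitochondrial share and the summed immediate-early list moved with the groups, and their part in the changes above was not tested. Fewer cells that express a gene and less RNA per cell cannot be told apart in these bulk libraries.

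By the Pearson correlation of log2(FPKM + 0.5) over the 5 libraries, the genes most like Sprr1a were Nudt17, Zdhhc18 and Nt5c (r = 0.9985, 0.9978 and 0.9976), and those most like Krt19 were Hgs, Dnpep and Srp68 (r = 0.9949, 0.9903 and 0.9895). In all, 30 genes exceeded an r of 0.99 with Sprr1a and 2 with Krt19. These values rest on 5 libraries that share the sorting and differ in depth, and are a description only. The correlation takes no account of the size of a change. Across the libraries Hgs ran from 42.08 to 45.27 FPKM, Dnpep from 22.35 to 27.11 FPKM and Srp68 from 51.25 to 54.87 FPKM. Krt19 ran from 1394.98 to 1841.57 FPKM.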

How the data were processed

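mRNA was measured in 5 libraries (2 AThi, 3 ATlo), grouped by their titles. The deposited table holds FPKM per gene and library, calculated by the authors and rounded to 2 decimals. Of the upstream steps, the submitters' processing notes list the tools bcl2fastq, STAR, featureCounts and DESeq2, and the genome builds mm10 and GRCm38, with no version of any. Per the labels, the library kit was stranded. The annotation, the strand setting and the handling of multi-mapping reads were not given in the sources used here.

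A mean of 1 FPKM or more was required. The test was limma 3.58.1 (R 4.3.3) on log2(FPKM + 0.5), eBayes with trend, two-sided, group as the single term, which leaves 3 residual degrees of freedom. Fold changes on this scale understate changes of low genes. Whole-number steps of FPKM times length in single-exon genes of up to 200 bases (tolerance 0.1 of a step) gave implied depths of 27.6 to 44.95 M reads. Read numbers and floors of 3 reads follow from this depth and from merged exon lengths of GENCODE M21 (GRCm38), and they cover counting error only. In 26 rows a date-like number replaces the symbol, and these rows are not named. No column was left out.

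The members and lists were chosen with earlier results of these data known. All members were named, and of each other list the up to 4 largest called changes and the 2 most abundant tested genes. A gene of the junction list is not reported here and was left out of its counts. Other genes are named where a count is small, after their values were seen. Alternatives changed the pseudocount, filter, scaling, moderation and replicate block, and left out each library.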

Additional observations from a re-analysis of the deposited data

How the results depend on the processing

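Under 14 alternatives, the number of called genes among the 8 tested stayed between 4 and 6, except with no filter on low values, where it was 3 of 10. It was 4 to 5 with each library left out in turn. The count over all genes was 4414 to 6324 in the 9 alternatives that kept every library, and 4307 to 5723 with a library left out. The number of genes tested varied with the filter, from 7685 at a minimum mean of 5 FPKM to 24118 with no filter. Krt7, Krt23 and Ivl kept their direction and call in all 14, and Sprr1a lost its call in 1. The Krt18 log2 fold change was -0.051 without AThi replicate 2, with a range of -0.051 to 0.24 with each library left out, and that of Krt80 was 0.20 without AThi replicate 1, with a range of -0.36 to 0.20. The cause was not tested. Rescaling to TPM, where 13570 genes passed the filter instead of 11397, gave a median of all genes of 0.028 and 3138 higher and 3186 lower. Centring on the median, over the same 11397 genes, gave 0.027 (-0.028 as tested) and 3039 higher and 2903 lower. The groups share replicate numbers 1 and 2, and the bracketed codes in the titles of same-numbered libraries begin with the same 4 characters. The labels do not say what the numbers or codes mark. Deviations from the group means correlated at 0.2 and 0.3 between same-numbered libraries. AThi replicate 1 was at -0.3 with ATlo replicate 2, and AThi replicate 2 at -0.2 with ATlo replicate 1. With 2 AThi libraries the deviations of each are the exact opposite of the other's. These values are therefore mirrored and cannot decide whether the replicates pair. With the replicate block, 5909 genes and 6 of the 8 were called, Krt8 (-0.38, adjusted p = 0.0157) added to the 5. Krt14 (-0.43, adjusted p = 0.0022) and Klf4 (0.28, adjusted p = 0.0245) also passed under the block. ATlo replicate 3 has no AThi library of its number, so the block rests on 2 pairs and leaves 1 residual degree of freedom. Leaving that library out, without a block, gave the same log2 fold changes for Krt8, Krt14 and Klf4. None of them passed there, with limma adjusted p-values of 0.0962, 0.1157 and 0.2515. In alternatives added after seeing the data, the Krt8 to Krt18 ratio in AThi minus that in ATlo was -0.18, and -0.21 to -0.15 with a library left out. Tgm1 and Krt17 were tested only with no filter, at -0.28 and 0.056 on the log2 scale and adjusted p-values of 0.136 and 0.424, where the added 0.5 exceeds every value of both genes.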

Other observations

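Krt36, a keratin outside the lists and chosen after its values were seen, had 0.15 and 0.35 FPKM in AThi, against 1.48, 1.23 and 1.39 FPKM in ATlo. It was below the filter and not tested. Krt16, the type I keratin of activated keratinocytes, had 2.06 and 7.85 FPKM in AThi, against 1.02, 2.68 and 0.85 FPKM in ATlo, and did not pass (adjusted p = 0.0817 in limma). AThi replicate 2 was its highest library. Of 47 further keratin rows, 17 were listed at 0 in every library and 6 had a mean of at least 1 FPKM. Of 16 further Sprr rows, 1 had such a mean.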
